A study of Mus musculus with 8 samples.

Results

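Messenger RNA of 5 genes that carry glucose into use was followed in mouse macrophages with and without Padi4: Slc2a6, a hexose transporter; Pfkl, a phosphofructokinase subunit; Pgam1, a phosphoglycerate mutase; Ldha, a lactate dehydrogenase subunit; and Slc16a3, a lactate exporter. They were taken by their exact symbols from a table of 6287 genes, and all 5 were listed, above 0 in every library, and above the minimum for testing. Bone marrow derived macrophages, which are grown in culture from marrow precursors, came from PAD4-/- mice and from WT mice, with 4 libraries each and WT as the control. Padi4 encodes PAD4, an enzyme that turns arginine into citrulline in proteins. The labels used here give no strain, age, sex, treatment or culture medium, and do not say whether the Padi4 deletion is limited to some cells; "con" in the sample titles is not explained. The design text calls the samples of a group independent, but nothing says which animal or culture each came from, so the spread between libraries may be partly technical.

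Glycolysis splits glucose to pyruvate in the cytosol. Glucose enters through transporters of the Slc2a family, phosphofructokinase commits it to the pathway, and phosphoglycerate mutase works in the lower part, ahead of enolase and pyruvate kinase. Lactate dehydrogenase turns pyruvate into lactate, which leaves the cell through monocarboxylate carriers of the Slc16a family. In macrophages this route is known to run faster after inflammatory activation and in low oxygen, where the hypoxia-inducible factor raises many of its genes, Ldha and Slc16a3 among them. Slc2a6 is known to be induced in activated mouse macrophages and sits largely on inner membranes.

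The promoters of 4 of the genes are shown because those of Ldha, Pgam1 and Slc16a3 hold the letters ACGTG on either strand. That of Slc2a6, whose level differed most, does not. ACGTG is a form of the core of the hypoxia-inducible factor's motif, which also occurs as GCGTG. Pfkl, not shown, does not hold ACGTG either. The form GCGTG was not searched and is not marked. It is present upstream of Slc2a6, Pfkl and Pgam1, so these genes are not set apart by the factor's core as such. The sequences are from RefSeq (GRCm38.p6), run 5′ to 3′ towards the transcript start, and stop short of annotated exons; capitals mark ACGTG or its reverse complement.
Ldha, chr7:46845554-46845803, plus strand: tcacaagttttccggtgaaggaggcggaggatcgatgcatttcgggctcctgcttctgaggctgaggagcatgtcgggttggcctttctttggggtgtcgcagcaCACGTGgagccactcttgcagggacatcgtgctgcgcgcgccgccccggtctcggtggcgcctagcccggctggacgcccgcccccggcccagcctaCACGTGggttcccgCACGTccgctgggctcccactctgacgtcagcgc
Pgam1, chr19:41911621-41911870, plus strand: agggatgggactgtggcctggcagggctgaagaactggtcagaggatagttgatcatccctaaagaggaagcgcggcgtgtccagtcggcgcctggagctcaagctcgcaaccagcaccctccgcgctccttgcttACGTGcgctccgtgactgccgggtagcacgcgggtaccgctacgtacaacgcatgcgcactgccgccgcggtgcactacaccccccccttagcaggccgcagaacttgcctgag
Slc16a3, chr11:120948817-120949052, plus strand: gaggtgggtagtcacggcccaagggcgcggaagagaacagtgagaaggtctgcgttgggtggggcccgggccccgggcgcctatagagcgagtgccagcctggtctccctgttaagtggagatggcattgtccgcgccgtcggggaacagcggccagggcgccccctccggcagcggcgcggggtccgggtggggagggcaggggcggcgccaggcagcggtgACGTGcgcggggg
Slc2a6, chr2:27027999-27028248, minus strand: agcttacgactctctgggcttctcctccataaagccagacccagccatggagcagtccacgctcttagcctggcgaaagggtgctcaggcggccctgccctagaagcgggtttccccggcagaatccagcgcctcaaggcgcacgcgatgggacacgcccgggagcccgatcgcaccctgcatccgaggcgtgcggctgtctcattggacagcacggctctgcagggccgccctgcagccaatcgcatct

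The motif search covered windows of 300 bases, from 250 before to 50 after each start, which is 6 windows for the 5 genes since Ldha has a pair of starts. ACGTG was found in 3 of the 6, against 19.6% of all 32851 windows and 26.2% of the 6599 windows of genes in the table. The upstream window of Ldha held 5 matches, with first bases at -145, -144, -48, -47 and -34 from the start. The first 4 of these are the 2 strands of 2 CACGTG E-boxes, a motif in 7.2% of all windows. Pgam1 had 1 match, at -114, and Slc16a3 had 2, at -27 and -14, the latter just outside the stretch shown. The GC box GGGCGG was present in 5 of the 6 windows and in 63.9% of those of listed genes, and the window of the downstream start of Ldha held none of the motifs searched. The letters TGACGTCA, the cAMP response element, occurred once, at -12 of the upstream Ldha start, and the AP-1 letters TGANTCA and the kappaB motif in no window. ACGTG lay in a gene with a higher mean in the knockout (Slc16a3) and in genes with a lower one (Ldha and Pgam1). A link between motif and direction was not tested, and the form GCGTG was not counted. A match describes letters only, not binding.

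**Figure D1:**
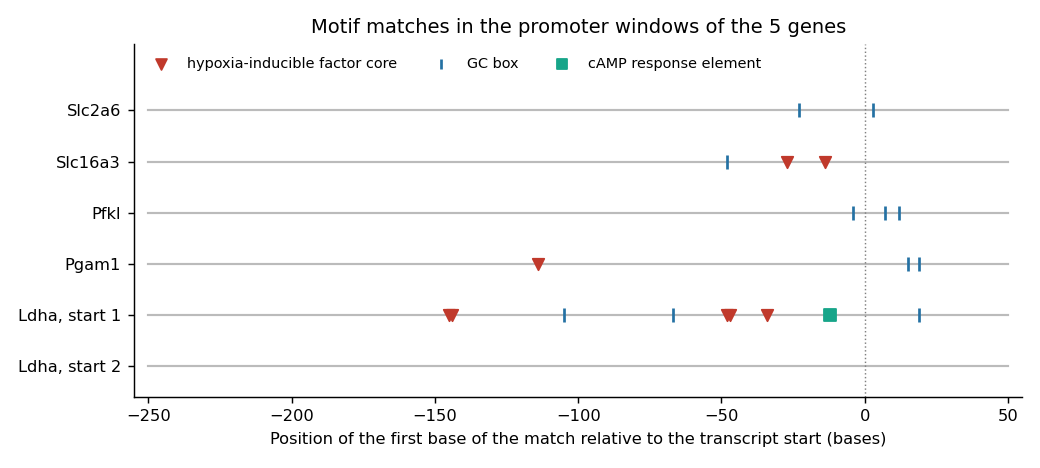
Positions of motif matches in the 6 promoter windows, each drawn as a line from 250 bases before to 50 after the transcript start (x axis, bases). Triangles, labelled hypoxia-inducible factor core, are its ACGTG form only, bars are the GC box and squares the cAMP response element. The upstream Ldha window carries 5 ACGTG matches, Pgam1 1 and Slc16a3 2.

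The 5 genes did not move one way. Slc2a6, Slc16a3 and Pfkl had higher means in the knockout, and Pgam1 and Ldha had lower ones. For each gene the knockout libraries lay wholly on one side of the wild-type libraries. This separation is part of how the genes were chosen, so their values are given as a description, with no p. Of the genes tested, 31.1% had groups that did not overlap, 24.0% with all knockout libraries above wild type and 7.12% with all below. By limma's adjusted p, 3 of the 5 were called higher and 2 lower, beside 21.1% and 6.61% of all 5674 genes tested (27.7% in either direction). With median-of-ratios scaling 2 were called higher and 2 lower, beside 9.06% and 11.2% of all genes (20.3% in either direction). By the q-value of the authors' deposited table, with the same threshold of 0.05, 3 were called higher and 2 lower, beside 9.89% and 10.6% of all genes. Nothing is read from these counts. In cell populations, a lower level of a transcript in every cell and fewer cells that make it cannot be told apart.

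Slc2a6 encodes a facilitative hexose transporter (chromosome 2, 27021363 to 27028000, GRCm38.p6). Its level was 1.17, 1.35, 1.25 and 0.62 FPKM in wild-type replicates 1 to 4 and 1.79, 2.62, 8.99 and 7.09 in knockout replicates 1 to 4. FPKM, fragments set per transcript length and per mapped total, allow levels of different genes to be compared. Knockout replicates 3 and 4 stood far above the rest, and replicates 1 and 2 were nearer to wild type but above each of its libraries. The mean was 1.10 ± 0.327 (SD, n = 4) in wild type and 5.12 ± 3.47 (SD, n = 4) in the knockout. Their ratio was 4.67, with the SD of the knockout libraries close to the difference in means. On the log2(FPKM + 1) scale, which understates changes of low genes, the knockout was higher by 1.36 (SE 0.406). Without knockout replicates 3 and 4 the difference was 0.61.

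Slc2a6 stayed well below Slc2a1 in every library. Slc2a1, the widespread glucose carrier of the plasma membrane, had 92.2 ± 2.80 FPKM in wild type and 99.7 ± 3.35 in the knockout (adjusted p = 0.0704). Of the summed FPKM of both, Slc2a6 made up 1.18% ± 0.343 (SD, n = 4) in wild type and 4.80% ± 3.15 in the knockout. The highest share was 8.39%, in knockout replicate 3. Slc2a1 passed the test without knockout replicate 1 (adjusted p = 0.0347) and with equal FPKM sums, with a range over 17 alternatives of 0.0347 to 0.729. Slc2a8, a carrier of inner membranes, had 4.88 ± 0.462 and 5.64 ± 0.342 FPKM (adjusted p = 0.0818). The list of other hexose transporters also held sugar phosphate carriers of the Slc37a family. Of its 5 genes tested, only Slc2a1 and Slc2a8 belong to the Slc2a family. None of the 5 passed limma's adjusted p, and 0 were called in the authors' deposited table. At an unadjusted p below 0.05, 3 were higher and 1 lower. The share of all genes at that unadjusted threshold is not given here, so nothing is read from this count. Slc2a3 and Slc2a9 were not analysed here.

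Slc16a3 (chromosome 11, 120948484 to 120959000) encodes the carrier that exports lactate from strongly glycolytic cells. It was at 18.4, 20.9, 16.8 and 18.3 FPKM in wild type and at 21.2, 25.1, 26.2 and 27.1 in the knockout. Only knockout replicate 1 came close to wild type, just above the highest control library. The means were 18.6 ± 1.69 and 24.9 ± 2.56, a ratio of 1.34 and a difference of 0.40 on the log2 scale (SE 0.083). Knockout replicates 2, 3 and 4 lay close together, and without replicates 3 and 4 the difference was 0.30.

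Its relative Slc16a1, which carries lactate and pyruvate in either direction, had the opposite sign. Slc16a1 was at 5.63, 6.16, 6.09 and 6.18 FPKM in wild type and at 5.57, 5.36, 3.48 and 4.08 in the knockout. All knockout libraries were below all controls, but replicate 1 by little. The difference was -0.34 (SE 0.114) and missed the threshold (adjusted p = 0.0519). It passed with median-of-ratios scaling (adjusted p = 0.0411) and without knockout replicate 1 or 2 (0.0137 and 0.0327), with a range over the alternatives of 0.0137 to 0.224. The authors' deposited table called Slc16a1 lower (log2 fold change -0.46, q-value 0.0101). Slc16a3 therefore made up 75.5% ± 1.75 of the summed level of the pair in wild type and 84.2% ± 4.16 in the knockout, with 79.2%, 82.4%, 88.3% and 86.9% in knockout replicates 1 to 4. Of 3 other genes of lactate and monocarboxylate handling tested, Slc16a1 among them, none passed limma's adjusted p. With median-of-ratios scaling 2 were lower and 0 higher, beside 11.2% and 9.06% of all genes. The authors' deposited table also called 2 lower and 0 higher, beside 10.6% and 9.89%. Bsg, the chaperone of these carriers, was not analysed here.

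Pfkl (chromosome 10, 77986947 to 78009807) encodes the liver-type subunit of phosphofructokinase. Wild-type libraries were tight, at 25.1, 24.1, 24.9 and 25.5 FPKM, and the knockout had 27.0, 29.0, 35.3 and 35.1. Replicates 3 and 4 were about equal to each other and well above replicates 1 and 2. The means were 24.9 ± 0.598 and 31.6 ± 4.25, a ratio of 1.27 and a log2 difference of 0.32 (SE 0.083), which was 0.16 without knockout replicates 3 and 4. The platelet-type subunit gene Pfkp was flat beside it: 52.4 ± 1.32 and 53.1 ± 0.212 FPKM, a difference of 0.02 (SE 0.036, adjusted p = 0.696) that was -0.07 with median-of-ratios scaling. Pfkl thus made up 32.2% ± 0.852 of the summed level of both in wild type and 37.2% ± 3.12 in the knockout, with 39.8% and 39.9% in replicates 3 and 4. Pfkm was not analysed here.

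**Figure D2:**
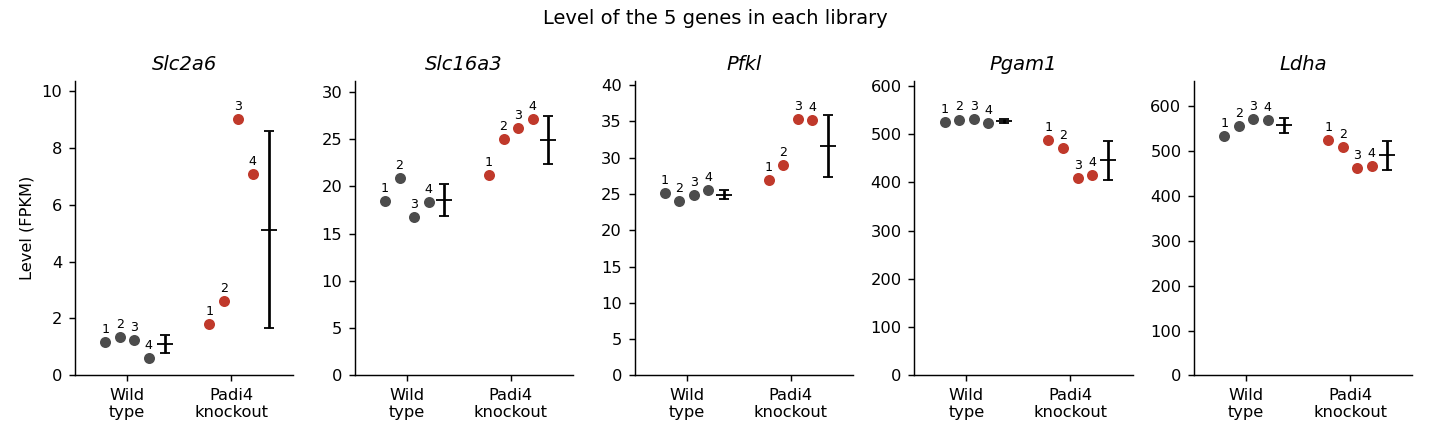
Level of the 5 genes (y axis, FPKM, from 0) in each of the 4 wild-type and 4 knockout libraries; points are libraries with their replicate number, and the black bars are the mean and SD of the group. Knockout replicates 3 and 4 lie farthest from wild type for each gene, with Slc2a6 at 8.99 and 7.09 FPKM against at most 1.35 in wild type.

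Pgam1 (chromosome 19, 41911871 to 41918665), the mutase that shifts the phosphate group of phosphoglycerate, was among the most abundant genes listed, at rank 109 of 6287 by wild-type mean. It was at 525, 530.1, 530.3 and 523 FPKM in wild type and at 489, 472, 408 and 415 in the knockout. Every knockout library was below the controls, replicates 3 and 4 by the most. The wild-type mean of 527 ± 3.77 had an SD of 0.71% of the mean, the smallest of the 5 genes, and the knockout mean was 446 ± 40.2. The ratio was 0.846 and the log2 difference -0.25 (SE 0.060), or -0.14 without knockout replicates 3 and 4. Pgk1, which encodes the enzyme ahead of it and was singled out after its values were seen, had 660.5 ± 11.3 and 678 ± 34.9 FPKM (adjusted p = 0.534). The share of Pgam1 in the sum of both was 44.4% ± 0.393 in wild type and 39.6% ± 0.972 in the knockout, with 40.4%, 40.5%, 38.6% and 38.9% in replicates 1 to 4.

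**Figure D3:**
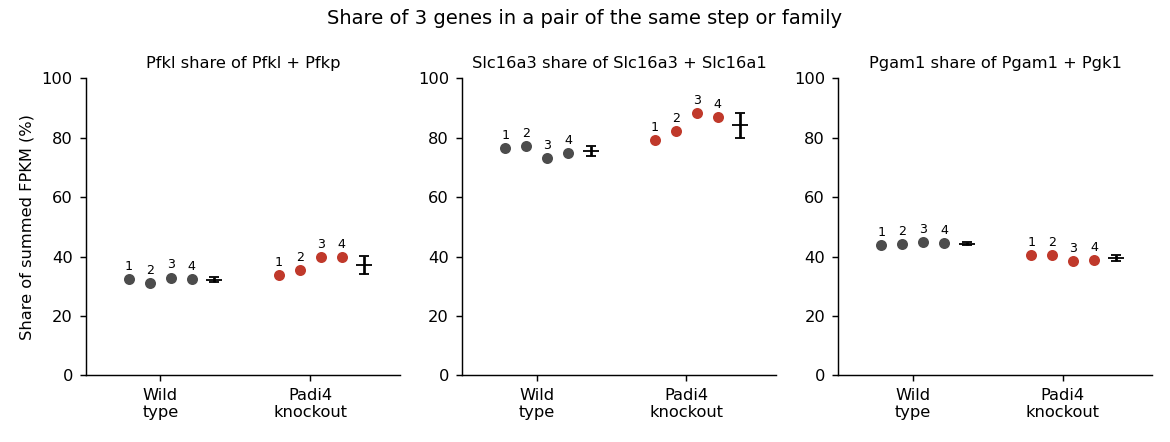
Share of Pfkl, Slc16a3 and Pgam1 in the summed FPKM of a pair (y axis, percent, from 0 to 100) in each library; points are libraries with their replicate number and black bars the mean and SD of 4. The mean share of Pfkl with Pfkp is 32.2% in wild type and 37.2% in the knockout, that of Slc16a3 with Slc16a1 75.5% and 84.2%, and that of Pgam1 with Pgk1 44.4% and 39.6%.

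Ldha (chromosome 7, 46842274 to 46855627), which encodes the subunit that favours lactate formation, followed Pgam1 closely. Its level was 533, 556, 570.4 and 569 FPKM in wild type and 525, 509, 461 and 466 in the knockout. Knockout replicate 1 was only just below wild-type replicate 1, and replicates 3 and 4 were the lowest. The means were 557 ± 17.3 and 490.4 ± 31.7, a ratio of 0.880 and a log2 difference of -0.19 (SE 0.051), or -0.11 without knockout replicates 3 and 4. Ldhb, the other main subunit gene, was not analysed here.

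The values of Pgam1 and Ldha carry a limit of sequence. Among GENCODE M21 transcripts, Pgam1 shared at least 200 bases at 90% identity or more with 3 processed pseudogenes, of which Pgam1-ps2 was identical over 765 bases, and Ldha with 12, the closest being Gm5452 at 95.9% over 997 bases. Slc2a6, Slc16a3 and Pfkl shared such a stretch with no other gene. How reads were divided between a gene and its copies is not stated in the labels or files, so the levels of Pgam1 and Ldha are uncertain to that extent; the copies were not analysed here.

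The split by direction held in each knockout library. Relative to the wild-type mean, on the log2 scale, knockout replicate 1 differed by 0.43 for Slc2a6, 0.19 for Slc16a3, 0.11 for Pfkl, -0.11 for Pgam1 and -0.08 for Ldha. Replicate 3 differed by 2.27, 0.48, 0.49, -0.37 and -0.27 for the same genes in that order. Pgam1 and Ldha had the most alike profiles of any pair, with a root mean square difference of 0.055 over the 8 libraries, followed by Slc16a3 and Pfkl with 0.119, and Slc2a6 was at least 0.842 from each of the others.

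**Figure D4:**
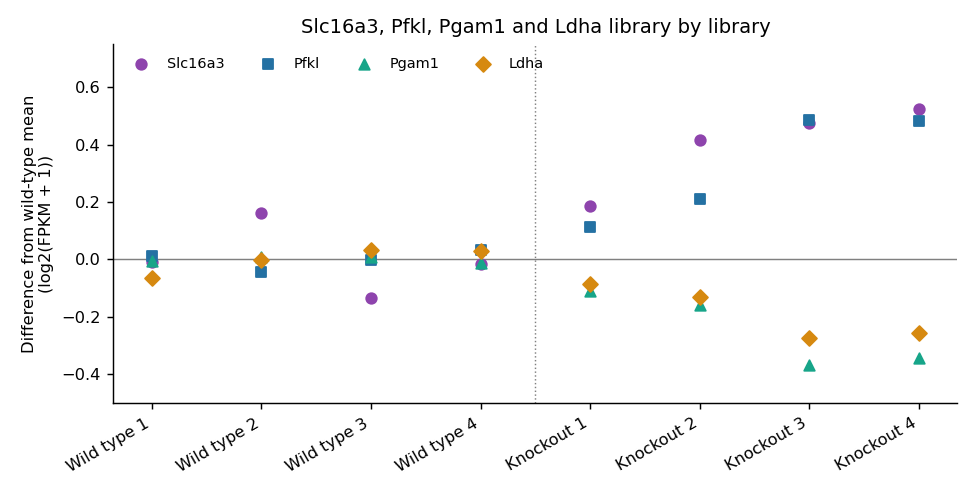
Difference of each library from the wild-type mean (y axis, log2(FPKM + 1)) for Slc16a3, Pfkl, Pgam1 and Ldha in the 8 libraries (x axis); Slc2a6 is left out for its larger scale. Slc16a3 and Pfkl are above 0 in all 4 knockout libraries and Pgam1 and Ldha below 0, with knockout replicates 3 and 4 farther out than replicate 1.

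The same measure of likeness was taken against 5577 other genes tested, predicted names left out. Nearest to Slc2a6 were Icosl, a co-stimulatory ligand gene (0.233), Marcksl1, an actin regulator gene (0.248), and Zfp36l1, which encodes an mRNA decay factor (0.302), against a median of 1.06 over all genes compared. Icosl, for instance, had 4.06 to 5.97 FPKM in wild type and 7.95, 8.92, 19.4 and 17.8 in the knockout. Nearest to Slc16a3 were Brat1, Rhof and Cbx6 (0.055 to 0.062), and nearest to Pfkl were Gas6, a ligand gene of receptors for dying cells, Inpp5e and Keap1, a sensor of oxidative stress (0.037 to 0.038). Rhof (0.87 to 1.73 FPKM) and Cbx6 (0.74 to 1.69) were low, where the log2(FPKM + 1) scale understates changes. Their ratios of means were 1.635 and 1.69, against 1.339 for Slc16a3. Zfp36l1 was likewise low in wild type, at 0.46 to 0.6 FPKM. Zfand2a, Aplp2 and Eif1a lay nearest to Pgam1 (0.028 to 0.035) and Pea15a, Ipo5 and Epb41l1 nearest to Ldha (0.026 to 0.037). Gas6 was at 256 to 270.4 FPKM in wild type and 291, 299, 353 and 348 in the knockout. It was picked for its likeness to Pfkl, so the shared pattern of high replicates 3 and 4 follows from that choice.

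These libraries differed widely beyond glucose use. On the first principal component (70.6% of the variance) wild-type libraries lay at -9.02 to -8.15, knockout replicates 1 and 2 at -0.91 and 1.42 and replicates 3 and 4 at 17.7 and 16.1. Of 10 macrophage markers 8 were listed and tested. By limma's adjusted p 7 were higher and none lower, beside 21.1% and 6.61% of all genes tested. Calls of these markers with median-of-ratios scaling are not given here. Their sum was 17700 to 18320 FPKM in wild type and 19310 to 25200 in the knockout. Without the very abundant Lyz2 it was 1430 to 1487 in wild type and 1641, 1689, 1955 and 1901 in knockout replicates 1 to 4. This sum, too, was highest in replicates 3 and 4. Listed osteoclast markers (3 of 6) summed to 17.1 to 20.4 FPKM in wild type and 9.68 to 11.6 in the knockout, and the 2 tested were both called lower. No marker of neutrophils (1 of 11 listed), dendritic cells (3 of 8) or fibroblasts (2 of 7) exceeded 1.13 FPKM in any library. Erythroid, lymphoid and mast cell markers were not analysed here, nor was Padi4 itself, which leaves the genotypes as labelled. The part of these differences in the values above was not tested. The median gene was 0.082 higher in the knockout; with median-of-ratios scaling, which moves that median to 0.003, the differences were 1.30 for Slc2a6, 0.32 for Slc16a3, 0.24 for Pfkl, -0.33 for Pgam1 and -0.27 for Ldha, all in the same direction as before.

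The rest of the route was read from 11 lists of glucose and hypoxia genes, without the 5 above. Of 139 genes in these lists 61 were tested, 12 rose, 7 fell and 42 did not pass. These are 19.7% and 11.5%, beside 21.1% and 6.61% of all genes tested, and the median difference was 0.059 against 0.082 over all genes. Under median-of-ratios scaling the counts were 7 higher and 12 lower, beside 9.06% and 11.2% of all genes, so the balance between directions depended on scaling. Leaving out wild-type replicate 1 or 2 left 6 higher genes and leaving out knockout replicate 3 left 7, whereas without knockout replicate 1 there were 19 higher and 11 lower. The q-values of the authors' deposited table called 7 of the 61 higher and 12 lower, beside 9.89% and 10.6% of all genes. Of the 19 called here without scaling, 14 were called there too, in the same direction. With median-of-ratios scaling all 19 calls were shared with that table in direction.

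Around the members' own steps, Hk3 was called lower and Pfkfb2 and Eno3 higher, beside 27.7% of all genes called in either direction. Of 4 genes of hexose phosphorylation, Hk3, the hexokinase typical of myeloid cells, fell from 149 ± 6.39 to 128 ± 7.19 FPKM (log2 difference -0.22, SE 0.051, adjusted p = 0.0145), with 129, 137, 125 and 120.3 in the knockout libraries and at least 143 in wild type. The other 3 did not pass. Of 4 genes at the phosphofructokinase step, Pfkfb2, a bifunctional enzyme that sets the level of phosphofructokinase's sugar phosphate activator, rose from 4.34 ± 0.205 to 5.50 ± 0.405 (0.28, SE 0.061, adjusted p = 0.0105). The other 3 genes of that step did not pass. Of 3 genes of lower glycolysis, Eno3, the muscle-type enolase gene, rose from a low 1.83 ± 0.171 to 2.58 ± 0.262 FPKM (adjusted p = 0.0114). These 3 calls were lost only without both knockout replicates 3 and 4 (adjusted p = 0.0557, 0.0520 and 0.0565), among 16 or 17 alternatives with lowest values of 0.00721, 0.00598 and 0.00356. Gapdh, Aldoa, Tpi1, Eno1 and Pkm were not analysed here, so most of the lower pathway besides Pgam1 and Pgk1 is not described.

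Of 5 genes that bring pyruvate into mitochondria, 1 rose and 2 fell, beside 21.1% and 6.61% of all genes. With median-of-ratios scaling 1 was higher and 3 lower, beside 9.06% and 11.2%. The authors' deposited table also called 1 higher and 3 lower, beside 9.89% and 10.6%. Mpc1, a subunit of the mitochondrial pyruvate carrier, was at 167, 172, 175 and 153 FPKM in wild type and at 139.7, 125, 126 and 128 in the knockout. Unlike Pgam1 and Ldha, it was not lowest in replicates 3 and 4: knockout replicates 2, 3 and 4 were about level. The fall was 0.36 on the log2 scale, a difference of -0.36 (SE 0.054, adjusted p = 0.00314), and it passed in each of 17 alternatives. Pdk2, a kinase that switches pyruvate dehydrogenase off, rose from 1.69 ± 0.309 to 2.71 ± 0.593 (adjusted p = 0.0206), and Pdp1, a phosphatase that switches it on, fell from 16.6 ± 1.39 to 12.6 ± 2.26 (adjusted p = 0.0297). The call of Pdk2 was lost without wild-type replicate 1, 2 or 3 (0.0619, 0.0571 and 0.0571) or knockout replicate 3 (0.0536), with a range of 0.00684 to 0.0951. That of Pdp1 was lost without wild-type replicate 2, 3 or 4 (0.0616, 0.0838 and 0.0658) or knockout replicate 3 or 4 (0.0679 and 0.0746), with a range of 0.00893 to 0.107.

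In the side branches, none of 5 genes of the pentose phosphate pathway passed limma's adjusted p. The authors' deposited table called 1 lower, beside 10.6% of all genes, and 1 was lower at an unadjusted p below 0.05. The share of all genes at that unadjusted threshold is not given here. The smallest adjusted p was 0.0629, for the transaldolase gene Taldo1, which did pass with median-of-ratios scaling (log2 difference -0.20, adjusted p = 0.0101). Of 6 glycogen genes 2 rose, 1 fell and 3 did not pass, beside 21.1% higher and 6.61% lower of all genes tested. With median-of-ratios scaling 1 was higher and 1 lower, beside 9.06% and 11.2%. Pgm2l1, which makes glucose bisphosphate, rose from 11.6 ± 0.775 to 14.6 ± 0.147 FPKM (adjusted p = 0.00470) and passed in each of 17 alternatives. Gyg, the primer protein of glycogen, fell from 122 ± 4.11 to 104 ± 7.68 (adjusted p = 0.0144), a call lost only without both knockout replicates 3 and 4 (0.0577; range 0.00232 to 0.0577). Gaa, the lysosomal glucosidase, rose from 29.1 ± 1.57 to 35.5 ± 4.32 (adjusted p = 0.0345), but not when scaled by median of ratios (0.102), without wild-type replicate 1, 2 or 3 (0.0882, 0.0881 and 0.0883) and without knockout replicate 3 or 4 (0.0871 and 0.0875), with a range of 0.00307 to 0.176.

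Of 6 hypoxia factors and their regulators 4 rose and none fell, beside 21.1% and 6.61% of all genes. With median-of-ratios scaling 2 were higher and 0 lower, beside 9.06% and 11.2%. The authors' deposited table called 2 higher and 0 lower, beside 9.89% and 10.6% of all genes. At an unadjusted p of limma below 0.05, 6 were higher and 0 lower. The share of all genes at that unadjusted threshold is not given here, so nothing is read from this count. Hif1a and Hif1an did not pass with median-of-ratios scaling (adjusted p = 0.385 and 0.154). Cited2, which encodes a competitor of the hypoxia-inducible factor for its co-activators, was at 32.8, 33.7, 32.2 and 34.9 FPKM in wild type and at 44.9, 45.3, 74.4 and 70.2 in the knockout (log2 difference 0.76, SE 0.167, adjusted p = 0.0142). Egln2, an oxygen-sensing prolyl hydroxylase, rose from 30.1 ± 1.08 to 38.7 ± 3.57 (adjusted p = 0.00668); both passed in each of 17 alternatives. Hif1a, the factor's oxygen-regulated subunit, rose from 40.2 ± 1.85 to 44.7 ± 1.32 (adjusted p = 0.0343), a call lost on leaving out each wild-type library in turn (0.0532, 0.0688, 0.0708 and 0.0687), or replicate 3 (0.05) or 4 (0.0728) of the knockout. Hif1an, an asparaginyl hydroxylase that restrains it, rose from 10.5 ± 0.270 to 11.9 ± 0.193 (adjusted p = 0.0180), a call lost without wild-type replicate 1 or 2 (0.0580 and 0.0548), with ranges of 0.0269 to 0.385 for Hif1a and 0.0121 to 0.232 for Hif1an.

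Of 10 hypoxia-induced genes outside glycolysis 2 rose and 2 fell, beside 21.1% and 6.61% of all genes. With median-of-ratios scaling 1 was higher and 3 lower, beside 9.06% and 11.2%. The authors' deposited table also called 1 higher and 3 lower, beside 9.89% and 10.6%. Kdm3a, a histone demethylase gene, rose from 19.7 ± 0.831 to 23.7 ± 1.86 FPKM (adjusted p = 0.0141), and Vegfa, the vascular growth factor, from 4.61 ± 0.420 to 5.78 ± 0.550 (adjusted p = 0.0271). Ndrg1, a stress-responsive gene, fell from 6.85 ± 0.477 to 5.55 ± 0.343 (adjusted p = 0.0148) and Bnip3l, a receptor for removal of mitochondria, from 60.7 ± 2.0 to 51.6 ± 3.64 (adjusted p = 0.0140). Kdm3a and Bnip3l lost their call only without both knockout replicates 3 and 4 (0.0584 and 0.0505; ranges 0.00662 to 0.0584 and 0.00386 to 0.0505). Vegfa did not pass with median-of-ratios scaling (0.0750) or without wild-type replicate 1, 2 or 3 (0.0797, 0.0607 and 0.0735) or knockout replicate 3 or 4 (0.0715 and 0.0700), with a range of 0.00720 to 0.141. Of 10 glucose-sensing and growth regulators 1 rose, 1 fell and 8 did not pass, beside 21.1% higher and 6.61% lower of all genes tested. With median-of-ratios scaling 0 were higher and 1 lower, beside 9.06% and 11.2%. Mtor, the growth kinase gene, rose from 6.48 ± 0.367 to 7.71 ± 0.545 (adjusted p = 0.0267) and Rheb, its activator, fell from 81.1 ± 3.13 to 70.6 ± 5.95 (adjusted p = 0.0358). The call of Mtor was lost without wild-type replicate 1 or 2 (0.0797 and 0.0710), without knockout replicate 3 or 4 (0.0690 and 0.0541) and with median-of-ratios scaling (0.0985), and that of Rheb without wild-type replicate 1, 2 or 3 (0.0882, 0.0957 and 0.0909) or knockout replicate 2, 3 or 4 (0.0527, 0.0925 and 0.0868), with ranges of 0.0120 to 0.184 and 0.00478 to 0.174.

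**Figure D5:**
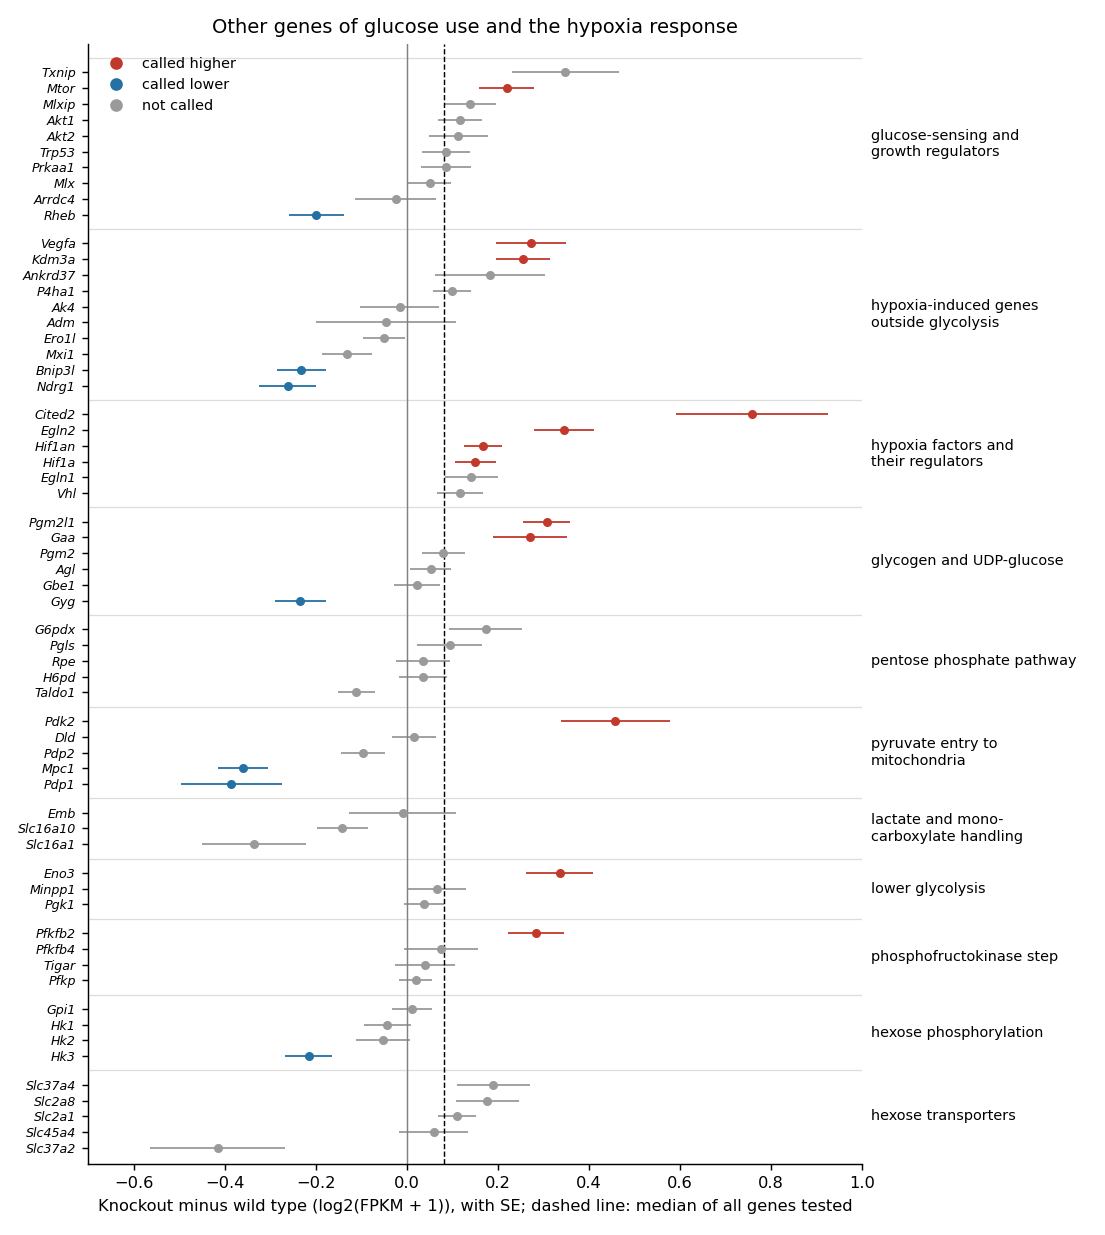
Difference between knockout and wild type (x axis, log2(FPKM + 1), point with SE) for the 61 other genes tested, grouped by step; red and blue points passed limma's adjusted p of 0.05 upwards (12) and downwards (7), grey points did not. The dashed line is the median of all genes tested, 0.082.

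In the authors' deposited table the log2 fold changes of the members were 2.14 for Slc2a6, 0.34 for Slc16a3, 0.25 for Pfkl, -0.32 for Pgam1 and -0.27 for Ldha. The directions are those computed here from the FPKM.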

How the data were processed

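RNA-seq of 8 libraries, 4 per genotype, was analysed, with groups taken from the sample titles. The authors deposited FPKM per gene to 2 decimals; per the submitters' processing notes they used HISAT, Bowtie2, RSEM and GRCm38, with no versions or settings given in the sources used here. Per the labels' protocols, total RNA was Trizol-extracted and made into BGISEQ libraries. A log2 fold change and a q-value per gene, also from the authors, stand in that table; their test is not given. Library totals ran from 381573 to 403848 FPKM; the depth is unknown, so no counting interval is given.

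limma (version 3.58.1, R 4.3.3) was applied to log2(FPKM + 1), allowing a trend of variance with level and robust moderation (two-sided). Benjamini-Hochberg adjustment ran over the 5674 genes whose mean FPKM reached 1, which left out 613, and calls needed an adjusted p below 0.05. The members and all lists were chosen with earlier results of these data known. Named were the 5 members, their paralogs and partners, up to 4 called genes per list by smallest adjusted p, and for each member the 3 genes with the smallest root mean square difference over the libraries in log2(FPKM + 1) centred on the wild-type mean, leaving out predicted names. Pgk1 and Taldo1 are additions made with their values in view. Positions are from a RefSeq table of GRCm38.p6, which held 6271 of the 6287 gene identifiers. Near-identical copies were sought with blastn 2.17.0. The procedure was tested on 5 simulated sets of 5674 genes, each with 200 changed. It called 88.0% of log2 changes of 0.5 and 98.4% of those of 1, and 5.5% of calls were false. Noise was drawn independently for each library, whereas knockout replicates 3 and 4 departed together here, and smaller changes were not simulated. The simulation therefore does not measure how reliable the calls here are. Alternatives covered the pseudocount, the filter, scaling, empirical Bayes settings, a replicate block and leaving out libraries.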

Additional observations from a re-analysis of the deposited data

Results flagged for a closer look

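Among 56 groups of 4 libraries checked over the members and the named genes, 2 held a library set apart from the other 3, and chance flags about 1 in 20 groups. Slc16a1 was lower in wild-type replicate 1, at 5.63 FPKM, than in the other wild-type libraries, at 6.09 to 6.18. Gaa was higher in wild-type replicate 4, at 31.4 FPKM (31.43 as deposited), than in the others, at 28.2 to 28.4. No group of the 5 members was set apart in this way.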

How the results depend on the processing

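Over 17 alternatives the 5 members kept their direction wherever they were tested, and between 1 and 3 were called higher and between 1 and 2 lower, the fewest (1 and 1) without wild-type replicate 2 or 3. Without both knockout replicates 3 and 4 the log2 differences were 0.614 for Slc2a6, 0.162 for Pfkl, -0.135 for Pgam1 and -0.107 for Ldha; that of Ldha was -0.274 with median-of-ratios scaling. With 1 library left out, they ran from 1.06 to 1.68 for Slc2a6, 0.355 to 0.471 for Slc16a3, 0.268 to 0.393 for Pfkl, -0.291 to -0.204 for Pgam1 and -0.219 to -0.157 for Ldha. A pseudocount of 0.1 gave 1.89 for Slc2a6. Of the wider lists, 7 genes were higher and 12 lower with median-of-ratios scaling, 7 higher with quantile normalization, and 4 higher and 3 lower without knockout replicates 3 and 4; with 1 library left out there were 6 to 19 higher and 5 to 11 lower. Of all genes, 514 were higher and 636 lower with median-of-ratios scaling, 488 higher with quantile normalization and 666 higher without knockout replicates 3 and 4, and 647 to 1682 were higher and 237 to 544 lower with 1 library left out, against 1195 and 375. The causes were not tested. No pairing by replicate number was seen: deviations of same-numbered libraries correlated at -0.032, -0.144, -0.060 and -0.060, and 0 of 4 wild-type libraries correlated best with its own number. A weak pairing could be hidden from this check by the wide spread among knockout libraries, so the samples may still be paired. With the replicate block 12 genes of the wider lists were higher and 6 lower, and the calls of Pdp1 (adjusted p = 0.0818) and Hif1a (0.0540) were lost. The members' differences are the same by construction under the block, while 2 were called higher and 1 lower in place of 3 and 2. The unknown depth limits Slc2a6 most, since its wild-type level was near the minimum of 1 FPKM.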
